A study of Mus musculus with 6 samples.

Results

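The Ikaros family of zinc finger transcription factors was followed in mouse Ba/F3 lymphoid cells that carried either form of human RPL10, a protein of the large ribosomal subunit. Its members were found by gene symbol and not by their values, and all 5 (Ikzf1 to Ikzf5) were among the 41255 genes listed. Polyadenylated RNA was sequenced from 3 clones per genotype, which were RPL10 WT clones 28, 29 and 36 and RPL10 R98S clones 11, 13 and 35, with 1 library per clone. R98S replaces arginine by serine at residue 98. In both groups the human cDNA had been delivered by a retrovirus, a short hairpin RNA was used to knock down mouse Rpl10, and the cells received cycloheximide, an inhibitor of translation elongation, at 100 µg/ml for 5 min before lysis. Each clone was grown from a single cell, so a clone is a separate line, and the variation between cultures of the same clone was not measured.

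Ikaros family proteins are regulators of lymphocyte development that act on chromatin. Zinc fingers in the first part of the protein bind DNA with a GGGAA core, and a pair of fingers at the end lets the members associate with themselves and with each other. Ikaros (Ikzf1) is required for the lymphoid lineages and is a tumour suppressor in lymphoid leukaemia, Helios (Ikzf2) and Eos (Ikzf4) are known from T cells, in particular regulatory T cells, Aiolos (Ikzf3) from maturing B cells, and Pegasus (Ikzf5) is a broadly expressed and more distant relative that binds other DNA sequences.

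The relatedness of the genes bears on whether reads can be told apart between them, and on which pairs resemble each other most. To show it, the 60 coding bases that were most alike over the 5 genes are given below for the 3 members that differed between genotypes (GRCm38). They lie in 1 exon of each gene, in a zinc finger pattern towards the end of the coding sequence, and capitals mark the bases that differ from Ikzf2.
Ikzf1, chr11:11769417-11769476, plus strand: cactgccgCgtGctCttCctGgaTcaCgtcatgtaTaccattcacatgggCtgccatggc
Ikzf2, chr1:69538867-69538926, minus strand: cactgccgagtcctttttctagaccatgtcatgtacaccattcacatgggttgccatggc
Ikzf5, chr7:131391736-131391795, minus strand: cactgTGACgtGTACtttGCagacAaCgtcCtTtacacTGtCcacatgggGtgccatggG
Even in this best stretch Ikzf1 differed from Ikzf2 at 9 positions and Ikzf5 at 19. Over the aligned coding sequences the identity with Ikzf2 was 58.4% for Ikzf1, 57.1% for Ikzf3, 57.4% for Ikzf4 and 42.7% for Ikzf5. The longest exact run that Ikzf2 transcripts shared with those of another member was 32 bases, a TG repeat outside the coding sequence in common with Ikzf4, and the longest shared coding run of the family was 26 bases, between Ikzf1 and Ikzf3.

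The family was represented very unevenly, and Ikzf2 was its main transcript. Levels of different genes were compared as normalized counts (reads divided by a size factor per library) per kilobase of the union of a gene's exons. In RPL10 WT clones Ikzf2 stood at 665 ± 54.0 per kilobase, Ikzf5 at 154 ± 7.44, Ikzf4 at 38.9 ± 5.33 and Ikzf1 at 6.40 ± 2.28 (SD, n = 3). In RPL10 R98S clones the levels per kilobase were 940 ± 104 for Ikzf2, 201 ± 13.9 for Ikzf5, 40.9 ± 4.45 for Ikzf4 and 1.59 ± 0.46 for Ikzf1 (SD, n = 3). The order Ikzf2, Ikzf5, Ikzf4, Ikzf1, Ikzf3 held in 6 of 6 libraries, and the ranges of neighbours in that order did not overlap over the 6 libraries. Within a library Ikzf2 was between 3.995 and 5.39 times Ikzf5, Ikzf5 was between 3.29 and 5.08 times Ikzf4, and Ikzf4 was between 3.98 and 35.8 times Ikzf1, all per kilobase. Of the 11021 tested genes with a length, 86.9% had a lower mean level per kilobase than Ikzf2, 49.1% a lower one than Ikzf5, 19.5% a lower one than Ikzf4 and 3.08% a lower one than Ikzf1. The median of those genes was 183 per kilobase, so Ikzf2 stood above it in every clone, Ikzf4 and Ikzf1 stood below it in every clone, and Ikzf5 stood below it in the WT clones and above it in the R98S clones. Of the exon bases of Ikzf5, 84.5% are also annotated on the opposite strand, and the use of strand in counting is not known. Its level, rank, ratios and share per kilobase may therefore be off.

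**Figure D1:**
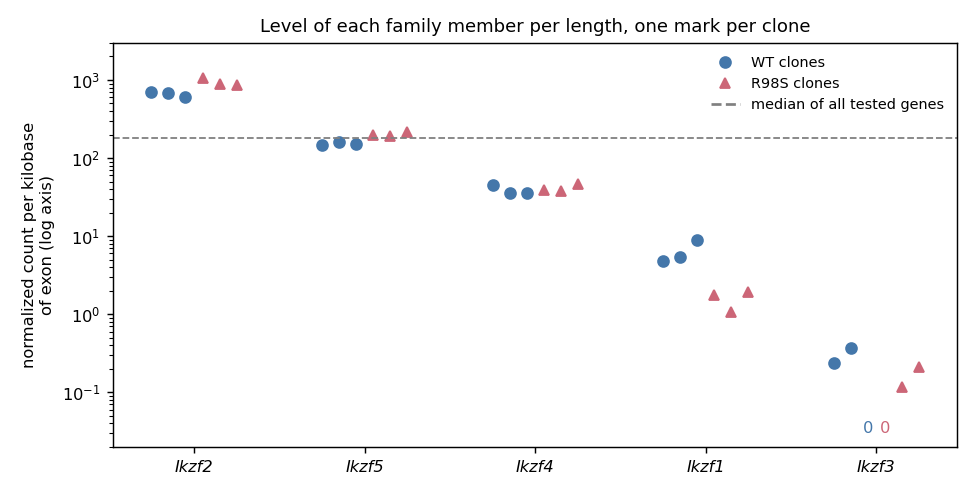
Normalized count per kilobase of exon for the 5 family members (log axis), with 1 mark per clone (circles, WT; triangles, R98S) and the median of all tested genes as a dashed line at 183. Ikzf2 is highest in every clone, and the marks of Ikzf3, listed at 0 in WT 36 and R98S 11, are lowest.

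Of the 5 members, 3 passed the test for a difference between genotypes, with Ikzf1 lower and Ikzf2 and Ikzf5 higher in RPL10 R98S cells. Ikzf4 did not pass, and Ikzf3 was too low to test. The test was a limma fit on log2(normalized count + 1) over the 11550 genes whose normalized count averaged 10 or more, and a gene was called at an adjusted p under 0.1. That fit called 23.9% of all tested genes, 10.7% higher and 13.1% lower in R98S cells, so that calls were common among genes at large. Which direction held more calls depended on the scaling, with 1241 higher and 1514 lower here, but 1487 higher and 1338 lower after rescaling to the same upper quartile. Of the 4 tested members, 2 were called higher and 1 lower. The member called lower, Ikzf1, reached the average of 10 only through its WT clones. The 3 called members were also those whose groups did not overlap, which was the case for 37.3% of all tested genes.

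Ikzf1 (ENSMUSG00000018654.17; GRCm38 chromosome 11, 11685003 to 11772926, plus strand) encodes Ikaros itself. In WT 28, 29 and 36 it had 27.6, 31.2 and 52.0 normalized counts, compared with 10.3, 6.12 and 11.1 in R98S 11, 13 and 35. All R98S clones lay below all WT clones, and WT 36 was the highest of the WT clones. The mean was 4.02-fold higher in WT (37.0 ± 13.2) than in R98S cells (9.18 ± 2.68; SD, n = 3). In the limma fit the log2 fold change of R98S over WT was -1.88 with an SE of 0.40 (95% interval -2.80 to -0.96, adjusted p = 0.0203). Few reads stood behind these values, 108 over the WT libraries (exact Poisson 95% interval 88.6 to 130) and 29 over the R98S libraries (19.4 to 41.6), intervals that cover counting error only. The lowest library, R98S 13, held 6 reads, above the 3 reads taken as the floor. The R98S mean of 9.18 lay under the average of 10 required for the test, so Ikzf1 passed that filter through its WT level. It was also called without the filter (limma adjusted p = 0.0287). Leaving out any 1 clone gave log2 fold changes from -2.06 to -1.61, all of them called.

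Ikzf2 (ENSMUSG00000025997.13; chromosome 1, 69531214 to 69687245, minus strand) encodes Helios. In WT 28, 29 and 36 it had 8160, 8002 and 7004 normalized counts, compared with 12304, 10372 and 10082 in R98S 11, 13 and 35. The lowest R98S clone stood above the highest WT clone, and R98S 11 stood above the other R98S clones. The mean was 1.41-fold higher in R98S (10919 ± 1208) than in WT cells (7722 ± 627; SD, n = 3), and the limma log2 fold change was 0.50 with an SE of 0.12 (95% interval 0.22 to 0.77, adjusted p = 0.0292). Leaving out any 1 clone gave 0.41 to 0.55, called each time. With the median change of the 30 nearest tested genes subtracted in each library, Ikzf2 was at 0.26 with an SE of 0.13, no longer called (limma adjusted p = 0.195).

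Ikzf5 (ENSMUSG00000040167.16; chromosome 7, 131388652 to 131410521, minus strand) encodes Pegasus. In WT 28, 29 and 36 it had 850, 930 and 864 normalized counts, compared with 1124, 1084 and 1237 in R98S 11, 13 and 35. The groups did not overlap, and the mean was 1.30-fold higher in R98S (1148 ± 79.4) than in WT cells (881 ± 42.6; SD, n = 3). The limma log2 fold change was 0.38 with an SE of 0.11 (95% interval 0.12 to 0.64, adjusted p = 0.0562). This call was the least stable of the 3: it held in only 1 of the 6 fits that left out a clone, the one without R98S 13, and adjusted p lay between 0.105 and 0.200 without WT 28, WT 29, WT 36, R98S 11 or R98S 35 (limma). Of the 5721 exon bases of Ikzf5, 4835 (84.5%) are also annotated on the opposite strand, 4652 of them in Pstk, which encodes the kinase that acts on seryl-tRNA for selenocysteine. Whether reads were counted by strand is not given in the sources used here, so reads of Ikzf5 and Pstk may not be separable. Pstk itself had means of 511 in WT and 584 in R98S cells, a log2 change of 0.20 (limma adjusted p = 0.406).

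Ikzf4 (ENSMUSG00000002578.17; chromosome 10, 128630843 to 128645991, minus strand) encodes Eos, which works with Foxp3 in regulatory T cells. In WT 28, 29 and 36 it had 270, 215 and 215 normalized counts, compared with 232, 228 and 276 in R98S 11, 13 and 35. The groups overlapped, since WT 28 stood above 2 of the 3 R98S clones. On average WT cells had 233 ± 31.9 and R98S cells 245 ± 26.7 normalized counts (SD, n = 3), and the limma log2 fold change was 0.07 with an SE of 0.17 (adjusted p = 0.807). The 95% interval, -0.33 to 0.47, covered changes between 0.797-fold and 1.39-fold, so it contains 0 as well as the 0.38 estimated for Ikzf5, and ends just short of the 0.50 estimated for Ikzf2.

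Ikzf3 (ENSMUSG00000018168.8; chromosome 11, 98464902 to 98546031, minus strand) encodes Aiolos. It had 2, 3 and 0 reads in WT 28, 29 and 36, compared with 0, 1 and 2 reads in R98S 11, 13 and 35. Every library was at or under the floor of 3 reads, so Ikzf3 was not tested and no fold is given. Its sum was 5 reads in WT (exact Poisson 95% interval 1.62 to 11.7) and 3 reads in R98S libraries (0.619 to 8.77).

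**Figure D2:**
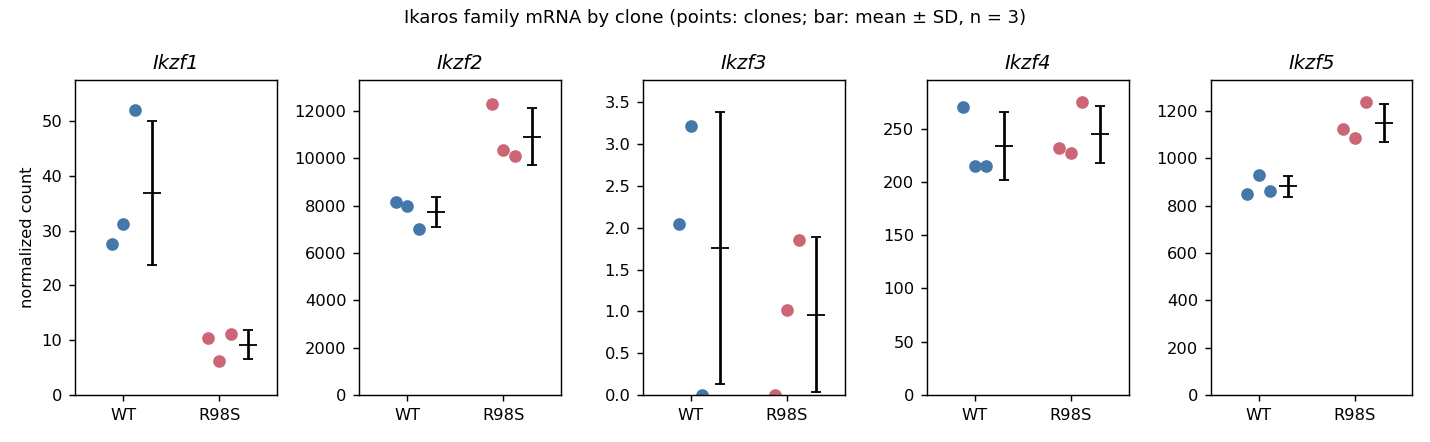
Normalized count of each family member in the 3 WT and 3 R98S clones (points), with the mean ± SD beside them; each panel has its own linear axis that starts at 0. Ikzf1 is lower and Ikzf2 and Ikzf5 are higher in every R98S clone than in any WT clone, while the groups of Ikzf4 and Ikzf3 overlap.

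**Figure D3:**
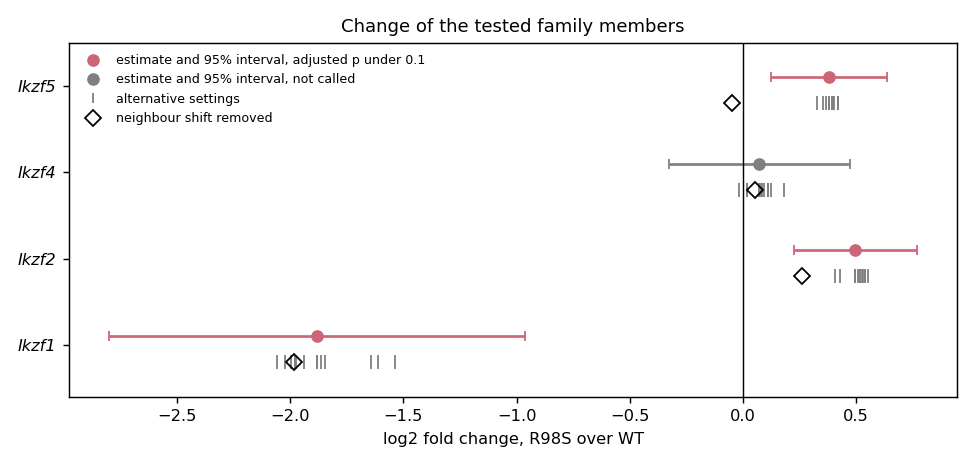
Log2 fold change of R98S over WT for the 4 tested members with its 95% interval (red, adjusted p under 0.1; grey, not called), the values under the alternative settings (ticks) and the value after subtracting the shift of the 30 nearest tested genes (diamonds). Ikzf1 stays between -2.06 and -1.54, whereas Ikzf5 moves to -0.050 at the diamond.

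As the members can associate with each other, their proportions within a library were compared as well. Ikzf2 made up 76.9% ± 1.26 of the family total per kilobase in WT clones and 79.3% ± 2.54 in R98S clones (SD, n = 3; exact permutation p = 0.3). The share of Ikzf5 was 17.9% ± 1.24 in WT clones and 17.0% ± 1.97 in R98S clones (SD, n = 3; exact permutation p = 0.7), and that of Ikzf4 was 4.50% ± 0.49 and 3.48% ± 0.55 (SD, n = 3; exact permutation p = 0.2). The share of Ikzf1 was 0.531%, 0.604% and 1.13% in WT 28, 29 and 36, compared with 0.138%, 0.0945% and 0.170% in R98S 11, 13 and 35. These groups did not overlap, and the two-sided exact permutation p of 0.1 is the smallest that 3 clones against 3 can give. The share of Ikzf3 was 0.022% in WT and 0.0097% in R98S cells (exact permutation p = 0.5).

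Pairs of members were also compared within a library, as the difference of their log2(normalized count + 1), called the log2 ratio here. Relative to Ikzf2, this log2 ratio of Ikzf1 was -8.15, -7.96 and -7.05 in WT 28, 29 and 36, compared with -10.09, -10.51 and -9.70 in R98S 11, 13 and 35. The mean of that log2 ratio differed by -2.38 between R98S and WT cells, and by -2.44 with a pseudocount of 0.5 and -2.04 with one of 5, since Ikzf1 is low. Ikzf1 also lay lower relative to Ikzf4 (-1.95) and to Ikzf5 (-2.26), and none of these ratios overlapped between the groups. Each had an exact permutation p of 0.1, the smallest possible, and 0.15 after Benjamini-Hochberg adjustment over the 6 pairs. Ikzf4 relative to Ikzf5 differed by -0.31 (exact permutation p = 0.1, adjusted 0.15), with the WT clones between -2.11 and -1.65 and the R98S clones between -2.27 and -2.16. Ikzf2 relative to Ikzf5 differed by 0.12 (exact permutation p = 0.5), and relative to Ikzf4 by 0.42 (exact permutation p = 0.2), and both of these ratios overlapped between the groups.

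The surroundings of the members moved to different extents. Around Ikzf5, the median log2 fold change of the 30 nearest tested genes, all within 3.42 Mb, was 0.39, against 0.12 for all tested genes of chromosome 7. Of these 30 genes, 29 had a positive value, 15 were called higher and 1 lower, while 10.7% of all tested genes were called higher and 13.1% lower. After the median shift of these neighbours was subtracted in each library, Ikzf5 was at -0.050 with an SE of 0.088 (limma adjusted p = 0.736), so its own change was no larger than that of its neighbourhood. The median deviation of the neighbours was -0.25, -0.19 and -0.20 in WT 28, 29 and 36, compared with 0.23, 0.11 and 0.30 in R98S 11, 13 and 35, without overlap between the groups. The nearest tested genes on either side were Pstk and Acadsb, an acyl-CoA dehydrogenase at 0.38 that was not called (limma adjusted p = 0.119).

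Around Ikzf2, the tested genes were sparse, with Lancl1 2590 kb before and Bard1, the partner of Brca1, 1456 kb after it, neither of them called. The median of the 30 neighbours of Ikzf2 within 4.98 Mb was 0.22, against 0.18 for all tested genes of chromosome 1. Of the 30, 5 were called higher and 1 lower, against 10.7% and 13.1% of all tested genes. Their median deviation was -0.16, -0.17 and -0.02 in WT 28, 29 and 36. In R98S 11, 13 and 35 it was 0.25, 0.20 and -0.09, so the groups overlapped. The neighbours of Ikzf1 had a median of 0.05 within 5.56 Mb, and subtracting their shift left Ikzf1 at -1.98 (limma adjusted p = 0.0246). Fignl1, 69.2 kb after Ikzf1, was at -0.08 and 4930512M02Rik, 120 kb before it, was at -0.22, and neither was called. The next genes, Ddc at -1.81, Grb10 at -1.24 and Zpbp at -0.85, were also lower in R98S cells by value, but only Zpbp passed the test (limma adjusted p = 0.0532). Around Ikzf4 the median was 0.04 within 0.288 Mb. Its nearest tested genes, Rps26 at 0.07 and Suox at 0.16, were not called.

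**Figure D4:**
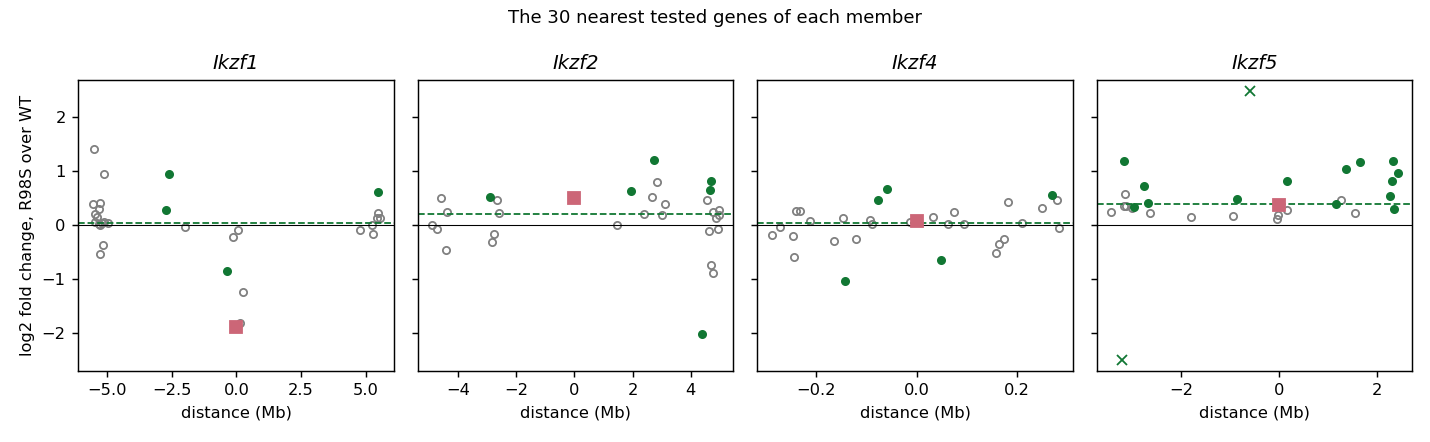
Log2 fold change of the 30 nearest tested genes against their distance in megabases from each tested member (square at 0); filled points were called, open points were not, crosses at the edge lie beyond the axis (Btbd16 at 4.18 and Cox6a2 at -2.93), and the dashed line is the neighbours' median. Around Ikzf5 nearly all neighbours lie above 0, with a median of 0.39, while the neighbours of Ikzf1, most of them megabases away, centre near 0.

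The promoters of the called members are shown where RefSeq (GRCm38.p6) had entries, as 250 bases before the start, since the family's own DNA-binding core can be looked for there. Entries were found for 2 members, with 2 starts for Ikzf1 and 1 for Ikzf5. The letters GGGAA were searched on both strands, on the other strand read as TTCCC, and capitals mark the matches.
Ikzf1, chr11:11685675-11685924, plus strand: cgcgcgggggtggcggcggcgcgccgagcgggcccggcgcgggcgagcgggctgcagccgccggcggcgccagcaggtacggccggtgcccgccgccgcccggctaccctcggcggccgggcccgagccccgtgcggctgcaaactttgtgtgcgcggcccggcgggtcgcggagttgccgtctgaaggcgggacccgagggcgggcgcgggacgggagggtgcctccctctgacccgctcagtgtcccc
Ikzf1, chr11:11689927-11690176, plus strand: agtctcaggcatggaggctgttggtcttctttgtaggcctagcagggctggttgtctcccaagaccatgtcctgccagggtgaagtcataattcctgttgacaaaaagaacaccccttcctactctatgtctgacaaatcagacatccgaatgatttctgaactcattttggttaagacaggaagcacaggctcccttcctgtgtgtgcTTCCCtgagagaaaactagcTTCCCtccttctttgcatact
Ikzf5, chr7:131410479-131410728, minus strand: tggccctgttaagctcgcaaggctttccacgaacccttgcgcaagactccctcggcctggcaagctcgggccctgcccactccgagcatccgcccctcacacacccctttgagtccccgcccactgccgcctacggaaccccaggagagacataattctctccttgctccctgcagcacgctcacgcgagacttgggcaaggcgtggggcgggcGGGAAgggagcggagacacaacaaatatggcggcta
The first start of Ikzf1 held 0 matches in a window of 82% GC. The second start of Ikzf1 held 2 matches, both as TTCCC, at 47.6% GC, and Ikzf5 held 1 match as GGGAA at 64% GC. Among 32851 promoters of the same length, 56.2% held at least 1 match, so the presence of these letters sets neither gene apart.

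For each tested member, the genes whose log2(normalized count + 1) followed it most closely over the 6 libraries were taken. These correlations also contain the difference between the genotypes and are given without a test. They were picked as the highest over all tested genes with only 6 libraries, so values near 1 can come from the picking alone. Ikzf1 was followed most closely by Hsdl1, P4ha1 (a subunit of collagen prolyl hydroxylase) and Rbbp8, with Pearson's r of 0.997, 0.995 and 0.995. Rbbp8 encodes CtIP, a protein of DNA end resection that also binds Ikaros. Their changes were far smaller than that of Ikzf1, with log2 fold changes of -0.31 for Hsdl1, -0.36 for P4ha1 and -0.25 for Rbbp8, of which P4ha1 alone was called (limma adjusted p = 0.0512). Ikzf2 was followed by Hsdl2 (r = 0.998), Mettl13 (r = 0.998) and Rpe (r = 0.996), the last an enzyme of the pentose phosphate pathway that lies 2.90 Mb from Ikzf2. Rpe rose from 1574 to 2260 normalized counts on average, a log2 change of 0.52 (limma adjusted p = 0.0235), close to the 0.50 of Ikzf2. Ikzf4 was followed by A530016L24Rik (r = 0.975), Gm26397 (r = 0.960) and Mtfr1l (r = 0.957). Ikzf5 was followed by Med8 (r = 0.997), Gtf2e1 (r = 0.996) and Pus1 (r = 0.992), which encode a Mediator subunit, a subunit of the general factor TFIIE and a pseudouridine synthase.

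Ikaros proteins work mostly through larger complexes, so the messages of known partners, modifiers and targets were read from the same fit. In these 4 lists together, 8 of the 38 tested genes were called (21.1%), near the 23.9% of all tested genes, with 2 higher and 6 lower. Their median log2 fold change was -0.12, against -0.01 over all tested genes. The NuRD complex, the nucleosome remodelling and deacetylase complex that Ikaros brings to chromatin, had 13 tested subunits with a median of 0.03, of which 1 was higher and 1 lower. Chd4, its remodelling ATPase, had normalized counts of 12447, 12640 and 12576 in WT, compared with 15641, 14729 and 15960 in R98S clones. The groups were well apart in relation to their spread, yet the log2 fold change was small, 0.30 with an SE of 0.09 (limma adjusted p = 0.0693). Gatad2b, a scaffold subunit, fell by 0.36 on the log2 scale (limma adjusted p = 0.0717), but was at -0.18 and not called with its neighbours' shift removed (adjusted p = 0.239). Both calls were sensitive to single clones, holding in 1 of 6 fits that left out a clone for Chd4 and in 2 of 6 for Gatad2b.

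Of the 6 other partners, Ctbp2 rose and Sin3b fell, and the list had a median of -0.08. Ctbp2, a corepressor that Ikaros can bind, stood at 455, 510 and 401 normalized counts in WT 28, 29 and 36, compared with 1056, 897 and 1111 in R98S 11, 13 and 35. The groups were separate by a wide gap, with a log2 fold change of 1.16 and an SE of 0.15 (limma adjusted p = 0.00318). Ctbp2 lies 1.66 Mb from Ikzf5 and is 1 of its 30 neighbours; with its own neighbours' shift removed it was at 0.76 and still called (limma adjusted p = 0.00935). Sin3b, a scaffold of another deacetylase complex, fell by 0.42 on the log2 scale (limma adjusted p = 0.0697), a call that held in 2 of 6 fits without a clone.

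Of the 11 genes for kinases, phosphatases and the ubiquitin ligase that act on Ikaros proteins, 0 were called higher and 2 lower, with a median of -0.15. Cul4a, the cullin of the CRL4 ubiquitin ligase, had normalized counts of 2876, 2816 and 3043 in WT, compared with 2081, 2060 and 1781 in R98S clones. It fell by 0.56 on the log2 scale (limma adjusted p = 0.0136), and kept its call without each clone in turn. Csnk2a2, a catalytic subunit of the casein kinase CK2 that phosphorylates Ikaros, fell by 0.49 (limma adjusted p = 0.0260), but stood at 0.02 with its neighbours' shift removed (adjusted p = 0.907). Cul4a, Csnk2a2 and Sin3b all lie on chromosome 8, and with that shift removed Cul4a was still called (-0.41, limma adjusted p = 0.0219) and Sin3b was not (-0.16, adjusted p = 0.233). Crbn, the substrate receptor through which thalidomide analogs lead to degradation of Ikaros and Aiolos, was at -0.15 on the log2 scale (limma adjusted p = 0.417). Csnk2a1, the other catalytic CK2 subunit, had means of 3346 and 3382 and was not called.

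Of 23 genes described as Ikaros targets in lymphoid cells, 8 were high enough to test and 9 were at or under the floor in every library. Among the latter were Igll1, a surrogate light chain gene, and Hes1, a Notch target, and these genes could not be told from 0 at this depth. Notch1, the receptor often mutated in T-cell leukaemia, stood at 270, 202 and 175 normalized counts in WT 28, 29 and 36, compared with 54.4, 109 and 56.4 in R98S 11, 13 and 35. All R98S clones lay below all WT clones, with R98S 13 nearest to them, and the log2 fold change was -1.60 with an SE of 0.31 (limma adjusted p = 0.0157). It was called without each clone in turn and with its neighbours' shift removed (-1.80, limma adjusted p = 0.00747). Cdkn1b, which encodes the cell cycle inhibitor p27, fell by 0.47 on the log2 scale (limma adjusted p = 0.0871), a call that held in 2 of 6 fits without a clone and not with its neighbours' shift removed (-0.38, adjusted p = 0.148). Myc averaged 10557 ± 1476 normalized counts over WT and 9277 ± 1131 over R98S clones (SD, n = 3) and was not called (limma adjusted p = 0.405). The median over the 8 tested targets was -0.18.

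**Figure D5:**
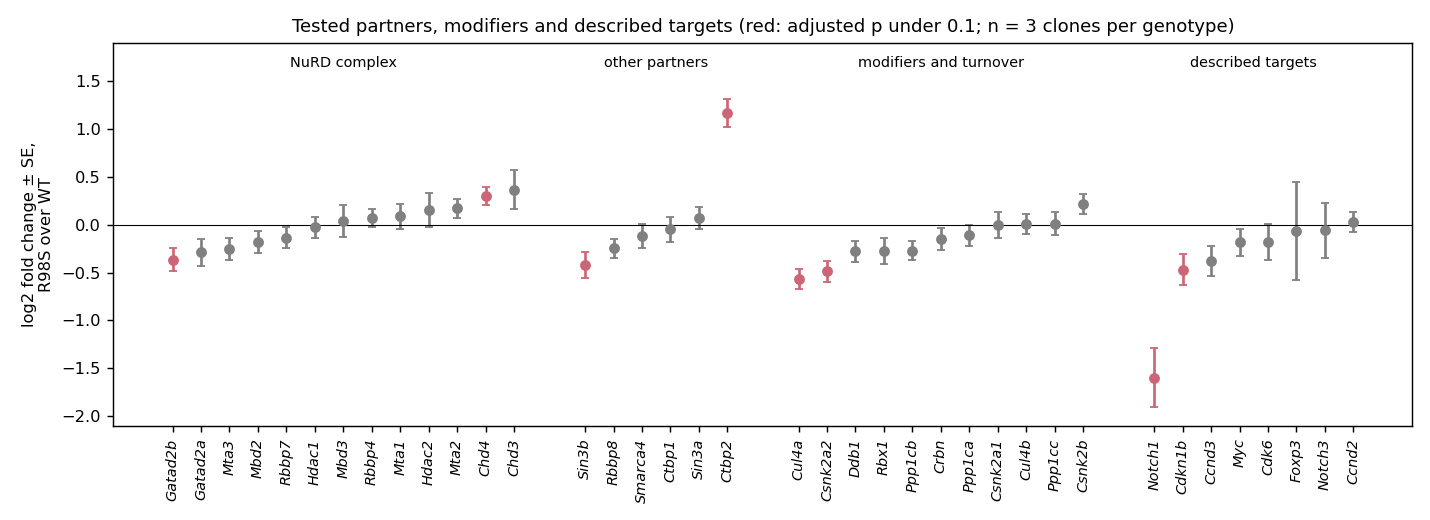
Log2 fold change ± SE of the tested partners, modifiers and described targets of the Ikaros family, ordered within each list (n = 3 clones per genotype; red, adjusted p under 0.1). Ctbp2 at 1.16 and Notch1 at -1.60 lie farthest from 0, and the other called genes lie between -0.56 (Cul4a) and 0.30 (Chd4).

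Lineage markers were read beside these results, because the members are characteristic of different lymphoid cells. Of 10 B lineage genes, 2 were tested and 5 were at or under the floor in every library, including the defining gene Pax5. Their summed normalized count was 1294 to 1404 in WT and 1640 to 1966 in R98S clones, nearly all of it from Cd79a, which was not called, and Cd79b, which was called higher (1.22, limma adjusted p = 0.0617) with its groups overlapping and in 2 of 6 fits without a clone. Of 11 T lineage genes, 3 were tested and 4 were at or under the floor in every library, among them Cd3e and Cd4. Cd3d had means of 13.3 in WT and 63.8 in R98S cells (log2 fold change 2.17, limma adjusted p = 0.0112) and Lck 42.6 and 94.3 (1.16, adjusted p = 0.0355), while Foxp3, the other tested gene, was at -0.07 (adjusted p = 0.944). Some other T lineage genes, not tested, had lower means in R98S cells. These were 16.4 in WT and 1.27 in R98S cells for Cd3g, 5.48 and 1.27 for Tcf7, and 2.06 and 0.31 for Cd3e. Cd3g had 3, 3 and 43 reads in WT 28, 29 and 36, so its WT mean rests on WT 36. In R98S 11, 13 and 35 it had 1, 1 and 2 reads. For Tcf7 the reads were 2, 5 and 9 in WT and 1, 1 and 2 in R98S clones. For Cd3e they were 1, 2 and 3 in WT and 0, 0 and 1 in R98S clones. In both genes the lowest WT clone had as many reads as the highest R98S clone. The summed count of all 11 T lineage genes was 64.5 to 131 in WT and 167 to 199 in R98S clones. Of 10 myeloid and mast cell genes and 5 erythroid genes, 4 of each were tested and 1 of each was called, lower. These were Lyz2, a myeloid gene, and Hba-a1, a globin, at means under 40 in either group. The log2 change of Lyz2 was -3.34 (limma adjusted p = 0.0366, called in 5 of 6 fits without a clone). That of Hba-a1 was -3.52 (limma adjusted p = 0.0389, 3 of 6). Both passed the filter only through the WT clones, with 4, 23 and 43 reads for Lyz2 and 29, 8 and 69 for Hba-a1. In R98S 11, 13 and 35 they had 1, 0 and 2 and 0, 6 and 1 reads, so these folds depend on the pseudocount. The other tested genes were not called. Cpa3 was at 1.43, Klf1 at 0.42, Gata1 at 0.12, Epor at 0.006, Ms4a2 at -0.57 and Mcpt8 at -0.61. The summed myeloid and mast cell count was 217 to 313 in WT and 80.6 to 539 in R98S clones. The summed erythroid count was 2167 to 3741 and 2216 to 3816. The part that any of these lineage differences has in the changes of Ikzf1, Ikzf2 and Ikzf5 was not tested. As the libraries are of bulk cultures, a lower level in every cell and fewer cells with a transcript cannot be told apart. Rpl10, the gene targeted by the hairpin in both groups, had normalized counts of 2853, 3156 and 1900 in WT, compared with 3028, 1883 and 2617 in R98S clones, which overlapped. Reads were aligned to the mouse genome, and whether any of these came from the human RPL10 cDNA was not tested. These counts are therefore no measure of the knock-down.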

How the data were processed

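Polyadenylated RNA of 6 Ba/F3 clones was sequenced from stranded TruSeq libraries (Illumina). The authors discarded reads of ribosomal and transfer RNA with Bowtie2, aligned the rest to mm10 (GRCm38) with TopHat, kept primary alignments with a mapping quality of at least 10 and counted reads on exons (HTSeq is among the tools in the submitters' processing notes). Per gene symbol the authors deposited a signal, the read count divided by the DESeq2 size factor of the library. The annotation and the use of strand are not given in the sources used here. Every value above 0 was a whole multiple of 1 step per library (100% within 0.01), which gave back whole reads and depths from 21786776 to 24204991. The step of WT 36 was 1.0008, too near 1 to be told from rounding. The floor of 3 reads equals a normalized count of 2.78 to 3.22. Between libraries of one genotype the chi-square of counts over genes was 17.1 or more per degree of freedom, well beyond counting error, and all 6 were kept.

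Groups came from the labels. Genotypes were compared two-sided with limma 3.58.1 in R 4.3.3, using log2(normalized count + 1) and an empirical Bayes trend on intensity, for genes with a mean of at least 10 over the 6 libraries, with Benjamini-Hochberg adjustment over all of them and a threshold of 0.1. Fold changes on this scale understate the change of low genes such as Ikzf1. Shares and ratios were compared with exact permutation tests. For shares, the longest coding transcript and the coding sequence were used as alternative lengths. Lengths, coordinates and coding sequences are from GENCODE M21 (GRCm38), in which 95.4% of tested symbols were found, and protein-guided alignment used MAFFT. Alternatives were pseudocounts of 0.5 and 5, no filter or a mean of at least 50, rescaling to the same total or upper quartile, no trend, leaving out each clone, edgeR 4.0.16 and DESeq2 1.42.0 on the whole reads, removal of the median deviation of the 30 nearest tested genes, and a threshold of 0.05.

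The members and lists were chosen with earlier results of these data known. Named were the 5 members, the called genes of each list (at most 6), Chd4, Crbn, Csnk2a1, Igll1, Hes1, Myc and Rpl10, the 3 most correlated genes and the nearest tested gene on each side of each tested member. Pstk was also described for its overlap with Ikzf5, and Ddc, Grb10, Zpbp, Cd79a, Pax5, Cd3e, Cd3g, Tcf7, Foxp3, Cd4, Btbd16 and Cox6a2 were named after their values were seen. Cpa3, Ms4a2, Mcpt8, Gata1, Klf1 and Epor were also named after that, as the remaining tested genes of their lists.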

Additional observations from a re-analysis of the deposited data

How the results depend on the processing

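Ikzf1 was called lower in 15 of 15 alternatives (log2 fold change -2.06 to -1.54) and was below the filter at a mean of at least 50. Ikzf2 was called higher in 15 of 16, the exception being removal of the neighbours' shift (0.26). Ikzf5 was called in 9 of 16, with 0.38 without a filter (limma adjusted p = 0.116), 0.33 to 0.42 without 1 clone and -0.050 with the neighbours' shift removed. Ikzf4 was called in 0 of 16, and without 1 clone lay between -0.015 and 0.18, negative without R98S 35. The genes called in the 4 lists went from 8 to 4 without a filter, 5 without the trend, 5 with the neighbours' shift removed and 3 to 9 without 1 clone. Over all tested genes the calls without 1 clone ranged from 1322 to 3213 (main value 2755), those higher from 585 to 1436 (1241) and those lower from 737 to 1777 (1514), with fewest without WT 28, and 1457 without WT 29 and 1560 without R98S 11. At a threshold of 0.05 there were 1722 calls, 776 higher and 946 lower. The share of Ikzf5 in the family changed by -1.83 to 0.13 percentage points without 1 clone, with the sign turned without R98S 11. The log2 ratios of members kept their direction with the other pseudocounts and without 1 clone, the alternatives run for them. edgeR and DESeq2 called 2746 and 3105 genes. The cause of these differences was not tested. No paired analysis was possible because the clone numbers differ between the groups. Depth limits Ikzf1 and Ikzf3 (at most 52 and 3 reads in a library). For the other members the spread between 3 clones sets the precision.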

Other observations

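The shift around Ikzf5 reached beyond its 30 nearest genes. Over all tested genes the median log2 fold change was -0.01, with 10.7% called higher and 13.1% lower, for comparison with the stretches below. In the 85 tested genes up to 5 Mb before Ikzf5, the median was 0.34, with 31 called higher and 2 lower. This stretch includes those of the 30 nearest genes that lie before Ikzf5. For the 38 genes from 5 to 10 Mb after Ikzf5 the median was 0.23, with 8 higher and 2 lower. From 10 to 20 Mb the medians were 0.27 before (39 genes, 15 higher and 0 lower) and 0.40 after (31 genes, 10 higher and 2 lower). Over the 513 genes more than 40 Mb before Ikzf5 the median was -0.03, with 53 called higher and 51 lower. Along chromosome 1, the 303 genes more than 40 Mb after Ikzf2 had a median of 0.15, with 52 called higher and 20 lower. The 59 genes from 20 to 40 Mb before it had 0.26, with 17 higher and 1 lower. The 44 genes more than 40 Mb before Ikzf2 had a median of 0.18 (9 higher and 1 lower). The 43 genes from 10 to 20 Mb before it had 0.30 (14 higher and 2 lower). For the 20 genes from 5 to 10 Mb before it the median was 0.37, with 8 higher and 1 lower. After Ikzf2 the median was 0.20 for the 21 genes up to 5 Mb (4 higher and 1 lower). It was -0.055 for the 20 genes from 5 to 10 Mb (1 higher and 1 lower). Farther after Ikzf2 it was 0.21 for the 39 genes from 10 to 20 Mb (9 higher and 2 lower). For the 50 genes from 20 to 40 Mb it was 0.098 (8 higher and 3 lower). These medians are a description of neighbouring genes, which are not independent, and the differences between the stretches were not tested.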
